A study of Rattus norvegicus with 12 samples.

Results

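Liver tumors of Long Evans Cinnamon (LEC) rats were compared with nontumor liver of the same strain and age on 8 of the 12 Affymetrix rat expression arrays of the series. The members were taken by title: 4 arrays of tumor liver and 4 of nontumor liver, all labelled as male LEC/Crj rats of 67 weeks, kept specific pathogen-free. LEC rats lack a working Atp7b, the copper transporter of the hepatocyte, in both groups, and the labels give no treatment. Every array carries a pool of 2 paired specimens, chosen randomly among 8 pairs. The labels do not say if pools share animals, so p-values measure only the spread between these samples. The nontumor arrays carry the disease label normal although they come from LEC rats. An array of Long Evans Agouti (LEA) liver at 67 weeks, the control strain with working Atp7b, is quoted as a background level and entered no test.

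Most of the liver is hepatocytes, which release plasma proteins into the blood and carry the enzymes of nitrogen, drug, bile acid and fat metabolism. The bile ducts are lined by cholangiocytes, an epithelium with its own secreted factors, surface receptors and transcription factors. Cells talk to each other through secreted ligands and surface receptors, and the receptors act through kinases, G proteins and, at the end, transcription factors. Levels are log2 array values, so a difference of 1 is a 2-fold change. Differences are tumor minus nontumor ± the standard error from limma, over 4 against 4 arrays, and values in a row follow arrays 1 to 4 of each group. A gene is said to rise or fall only where its Benjamini-Hochberg adjusted p from limma, over all probe sets, was under 0.05.

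The labels give male rats, yet Xist, the RNA of the silenced X chromosome of female cells, read 11.40 to 13.12 on the 8 arrays. Eif2s3y, a gene of the Y chromosome, read 3.65 to 3.81. Atp7b read 8.28 to 8.64. Correlations of arrays across probe sets, which are not replicates, were 0.968 to 0.994 within tumor, 0.975 to 0.993 within nontumor and 0.845 to 0.933 between the groups. Probe sets for absent bacterial RNA reached 6.01 on nontumor and 5.67 on tumor arrays, and a level in that range is only a bound. The top of the scale was 14.59.

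Tumor and nontumor liver differed over much of the array. Of 31042 probe sets, 9834 (31.7%) were higher and 10011 (32.2%) lower in tumor liver. Counted by gene, 5511 of 14217 (38.8%) were higher and 4147 (29.2%) lower. Most changes of at least 2-fold were rises: 1987 genes (14.0%) were higher and 983 (6.91%) lower. The balance of rises and falls depended on the scaling: 49.6% of the called probe sets were higher on the deposited values and 39.5% after each array's median was subtracted, which moved every difference by -0.10. Among genes the majority turned: 57.1% of the called genes were higher on the deposited values and 48.3% after that step, and repeated quantile normalization gave 4379 genes higher and 4825 lower. The median difference of all genes was 0.07 on the deposited values and -0.04 under either alternative.

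The tumor arrays had lost hepatocyte signal to very different degrees. A hepatocyte index was made from 25 measured genes for plasma proteins and metabolic enzymes, as the median difference from the nontumor mean. It read -1.42, -2.66, -0.68 and -5.47 on tumor arrays 1 to 4. The 15 genes of secreted proteins among them gave -1.18, -2.37, -0.43 and -5.46, and the 10 enzyme genes -2.27, -3.77, -1.47 and -5.73, so the depth of the loss depended on the genes taken while the order of the arrays did not. Many index genes lay near the top of the scale in nontumor liver. On the nontumor arrays it stayed between -0.07 and 0.08. Of the 25 index genes, 19 fell and 6 were not called. Fewer hepatocytes and less RNA per hepatocyte cannot be told apart in bulk tissue.

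Other marker lists were far more alike on the 4 tumor arrays. All 7 measured bile duct markers rose, with a list median 4.05, 4.01, 4.19 and 4.46 above the nontumor mean. Of 10 fibroblast and stellate cell markers 9 rose, with list medians of 1.81 to 2.29. Of 7 smooth muscle markers 5 rose, with list medians of 0.53 to 1.26. Of 9 endothelial markers 6 rose and 3 fell. Of 8 macrophage markers 3 rose (37.5%) and 2 fell (25.0%), near the 38.8% and 29.2% of all genes. Of 9 T and NK cell markers 4 rose (44.4%) and 2 fell (22.2%). The neutrophil list was highest on tumor array 3, at 1.43, against 0.40 to 0.55 on the other tumor arrays. Of 8 gut epithelial markers 6 rose and 1 fell, with list medians of 0.73 to 1.64. Of 6 B and plasma cell markers 3 rose and 1 fell, of 6 mast cell markers 4 rose and 1 fell, and of 5 Schwann cell and nerve markers 1 rose and 3 fell. Pancreatic acinar markers fell in 7 of 8, skeletal muscle markers in 4 of 7, fat markers in 3 of 5 and red blood cell markers in 3 of 4, beside 29.2% of all genes. The median level of the skeletal muscle list lay in the range of absent RNA on every array. That of the acinar list was little above it, from 5.85 on tumor array 4 to 7.02 on nontumor array 3. The top of that range was itself lower on tumor arrays, 5.67 against 6.01. A loss of these cell types was not tested. Of 7 mesothelial markers 3 rose, and the list medians on the tumor arrays were within 0.11 of the nontumor mean.

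**Figure D1:**
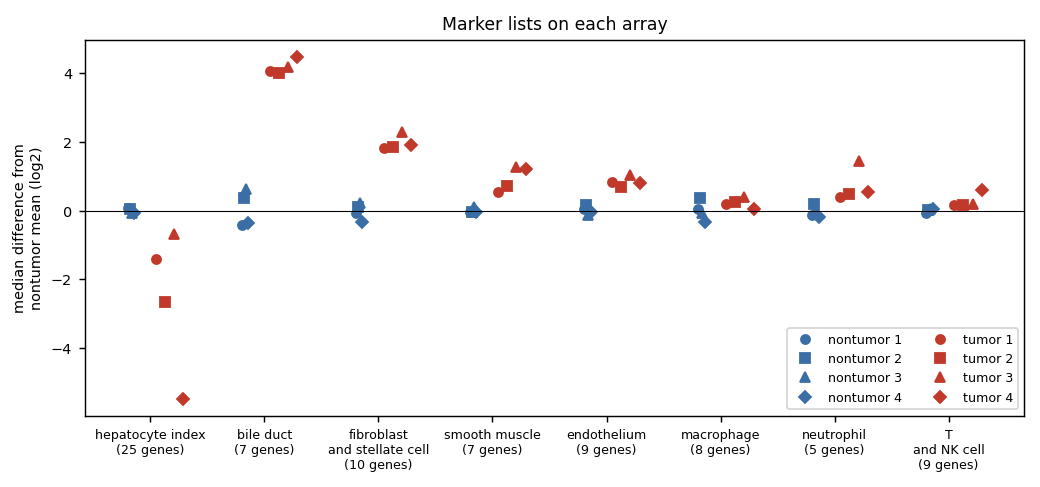
Median difference from the nontumor mean (log2, vertical axis) of 8 marker lists on the 4 nontumor (blue) and 4 tumor (red) arrays, with 1 symbol per array. The hepatocyte index runs from -0.68 to -5.47 over the tumor arrays, while the bile duct list stays between 4.01 and 4.46.

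The rises, too, had an order over the tumor arrays. Of 1987 genes that rose at least 2-fold, 1233 were lowest on tumor array 3, the array with the highest hepatocyte index, and 1062 were highest on tumor array 4, the array with the lowest. Of the 9 fibroblast and stellate cell rises, 8 were highest on tumor array 3.

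The 4 classes of signalling genes were read from 37 lists with 1097 measured genes. Secreted genes rose in 94 of 193 (48.7%) and fell in 45 (23.3%). Surface genes rose in 179 of 369 (48.5%) and fell in 100 (27.1%). Transcription factor genes rose in 110 of 249 (44.2%) and fell in 58 (23.3%). Signalling genes rose in 171 of 286 (59.8%) and fell in 37 (12.9%). Rises thus outnumbered falls in each class, beside 38.8% and 29.2% of all genes. The counts of the single lists below are to be read beside these shares of all genes.

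**Figure D2:**
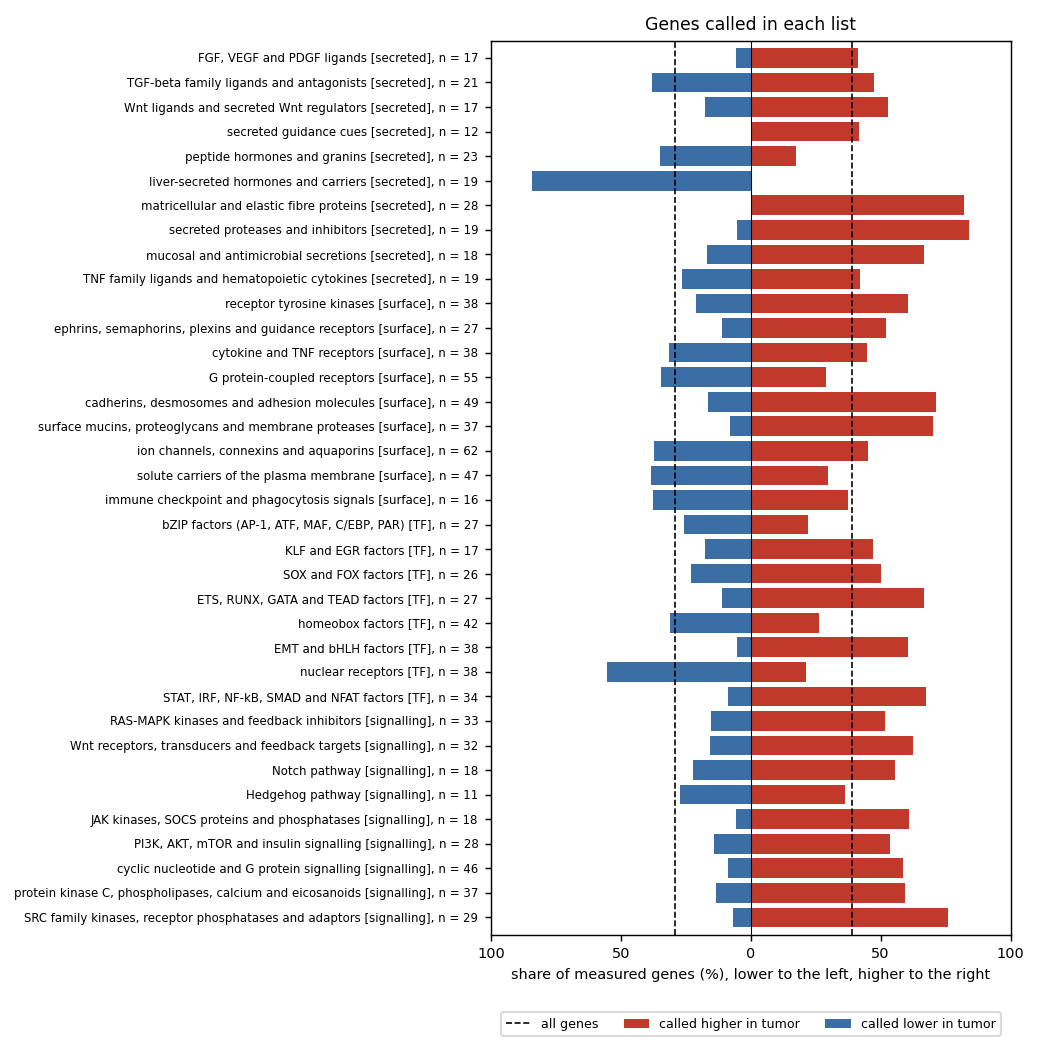
Share of the measured genes of each list, apart from 1 signalling list not shown, called higher (red, to the right) or lower (blue, to the left) in tumor liver, in percent, with the shares of all genes as dashed lines. Liver-secreted hormones and nuclear receptors reach farthest left, matricellular proteins and secreted proteases farthest right.

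Among secreted factors, the activin and TGF-beta family split most plainly. Of 21 measured ligands and antagonists, 10 rose and 8 fell. Inhbb, which encodes the subunit of activin B, read 6.40, 6.49, 6.38 and 6.25 in nontumor and 10.23, 10.29, 10.18 and 10.54 in tumor liver. All tumor values lay above all nontumor values, the difference was 3.93 ± 0.10, a 15.2-fold rise, and LEA liver read 6.20. Inhbc, the activin C subunit made by hepatocytes, went the other way and read 9.05, 8.79, 8.36 and 8.32 in nontumor and 5.70, 5.57, 6.12 and 5.62 in tumor liver. Its difference of -2.88 ± 0.19 is not exact, since 2 of the tumor values lay in the range of absent RNA. Inhbe, the activin E subunit, another liver product, fell by 2.41 ± 0.29.

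Tgfb3, a TGF-beta ligand, read 7.43, 7.65, 7.27 and 7.12 in nontumor and 11.37, 11.17, 10.98 and 11.25 in tumor liver, a difference of 3.82 ± 0.13. Fst encodes follistatin, which binds and neutralizes activins, and read 6.27, 7.03, 6.62 and 6.74 in nontumor and 8.45, 8.46, 9.50 and 9.0 in tumor liver, highest on tumor array 3. Its difference was 2.19 ± 0.25. Chrd, for the BMP antagonist chordin, and Bmp2 fell to a similar degree on each tumor array, with differences of -1.24 ± 0.11 and -1.0 ± 0.14. On the receiving side, Tgfbr1, the type I TGF-beta receptor, rose by 1.13 ± 0.18. The activin receptor genes Acvr2a and Acvr2b were not called, with differences of -0.40 ± 0.17 (adjusted p 0.0679) and 0.11 ± 0.09 (adjusted p 0.315), both from limma. Acvr2a was lower with an adjusted p of 0.00266 in limma after quantile normalization was repeated, and was called lower also after array medians were subtracted (0.0248), with array weights (0.0123), with the title number as a replicate block (0.0353) and without nontumor array 4 (0.0256), all adjusted p from limma. Smad3, the transcription factor that carries the activin and TGF-beta signal, rose by 2.23 ± 0.16.

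Wnt ligands and their secreted regulators rose in 9 of 17 and fell in 3. Sfrp1, which binds Wnt proteins outside the cell, read 7.37, 8.03, 7.84 and 7.25 in nontumor and 10.69, 10.67, 10.77 and 10.69 in tumor liver, a difference of 3.08 ± 0.16. The tumor values spanned only 10.67 to 10.77. The antagonist Dkk2 rose by 2.34 ± 0.21 from nontumor values in the range of absent RNA, and the ligands Wnt4 and Wnt7a rose by 2.33 ± 0.29 and 2.33 ± 0.12, Wnt4 from values in or near that range. Wnt2, a ligand of liver endothelium, and Rspo3, which strengthens Wnt signals, fell by 0.85 ± 0.12 and 0.64 ± 0.10.

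Of 17 growth factor ligands of the FGF, VEGF and PDGF families, 7 rose (41.2%, near the 38.8% of all genes) and 1 fell. Fgf1 read 9.04, 9.39, 9.53 and 9.19 in nontumor and 11.01, 11.05, 10.02 and 11.11 in tumor liver, with tumor array 3 lowest of the tumor arrays, and rose by 1.51 ± 0.24, although 1 of its other probe sets was called lower. Angpt2, a ligand of the endothelial receptor Tek, rose by 1.37 ± 0.23 from the range of absent RNA, and Pdgfa, a ligand of the PDGF receptors, by 1.24 ± 0.15. Fgf2 fell by 0.23 ± 0.08, a call lost when quantile normalization was repeated. Secreted guidance cues, first known from growing axons, rose in 5 of 12 (41.7%), also near the share of all genes. Slit3 rose by 2.92 ± 0.18 and Sema3b by 2.47 ± 0.29, the latter from values in or near the range of absent RNA.

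Of 19 TNF family ligands and hematopoietic cytokines, 8 rose (42.1%) and 5 fell (26.3%), near the 38.8% and 29.2% of all genes. Kitlg, stem cell factor, read 5.69, 6.30, 6.39 and 6.36 in nontumor and 9.59, 9.74, 9.72 and 9.40 in tumor liver and rose by 3.43 ± 0.16, with LEA liver at 5.67. The lowest nontumor value was on array 1, in the range of absent RNA, and 1 of 3 other probe sets of Kitlg was called lower. Il34, a ligand of the macrophage receptor Csf1r, rose by 1.49 ± 0.11. Tnfsf12, the ligand TWEAK, rose by 0.73 ± 0.08. Mif, a macrophage cytokine, and Lif fell by 0.60 ± 0.12 and 0.55 ± 0.08. Of 23 peptide hormones and granins, 4 rose and 8 fell. Edn1, the vasoconstrictor endothelin 1, read 7.38, 7.17, 7.81 and 7.43 in nontumor and 8.67, 8.88, 8.88 and 8.74 in tumor liver and rose by 1.34 ± 0.13. The gut hormone Pyy fell by 0.65 ± 0.10.

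The structural and protease lists moved mostly upward. Of 28 matricellular and elastic fibre genes, 23 rose and 5 were not called, with a median difference of 1.78. Postn, for periostin, read 4.24, 5.02, 4.96 and 4.76 in nontumor and 7.61, 8.34, 9.42 and 8.82 in tumor liver, and Ltbp1, which tethers latent TGF-beta to the matrix, read 7.47, 8.24, 8.26 and 7.35 in nontumor and 11.39, 11.57, 11.12 and 11.66 in tumor liver. Postn was highest on tumor array 3, and its nontumor values were all in the range of absent RNA. Their differences were 3.80 ± 0.35 and 3.60 ± 0.23. The fibroblast marker list stood 1.81 to 2.29 above the nontumor mean on the same arrays, and its part in these rises was not tested.

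Of 19 secreted proteases and inhibitors, 16 rose and 1 fell. Both plasminogen activators were among them: Plat read 7.80, 8.36, 8.09 and 7.89 in nontumor and 11.76, 11.67, 11.80 and 11.94 in tumor liver and Plau 8.91, 9.39, 8.97 and 8.58 in nontumor and 11.47, 11.78, 10.82 and 11.57 in tumor liver. The differences were 3.76 ± 0.13 and 2.45 ± 0.23. Plaur, the surface receptor of Plau, rose by 0.79 ± 0.09, and Plg, the substrate made by hepatocytes, fell by 2.72 ± 0.81. Spink1, a trypsin inhibitor, fell by 1.90 ± 0.22. Mucosal and antimicrobial secretions rose in 12 of 18 and fell in 3. Reg3b, a lectin of injured gut and pancreas, read 6.33, 8.37, 8.82 and 6.82 in nontumor and 10.75, 12.65, 11.38 and 11.54 in tumor liver, a difference of 4.0 ± 0.59 with a wide spread in both groups. Agr2, a chaperone of mucus cells, rose by 3.68 ± 0.24, and Defb1 and Tff2 fell by 0.90 ± 0.25 and 0.72 ± 0.12. The bile duct and gut epithelial lists were also higher on all tumor arrays, and their part in these rises was not tested.

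Liver-secreted hormones and carriers fell in 16 of 19, with 3 not called and a median difference of -2.10. Agt, the precursor of angiotensin, read 12.17, 11.92, 11.72 and 11.84 in nontumor and 9.38, 7.92, 9.86 and 6.88 in tumor liver. Azgp1, a fat-mobilizing glycoprotein, read 13.28, 13.17, 12.73 and 12.76 in nontumor and 10.02, 9.15, 11.52 and 7.14 in tumor liver. Hamp, for the iron hormone hepcidin, read 13.16, 13.38, 12.84 and 13.07 in nontumor and 11.40, 9.39, 10.77 and 7.27 in tumor liver. All 3 were lowest on tumor array 4, and their differences were -3.40 ± 0.57, -3.52 ± 0.76 and -3.40 ± 0.76. Angptl6, an angiopoietin-like hormone, was also lowest on tumor array 4 but differed much less between the tumor arrays, and read 8.98, 8.91, 8.72 and 8.94 in nontumor and 7.25, 6.89, 6.99 and 6.77 in tumor liver. Igf1, the growth hormone-driven growth factor, fell by 1.66 ± 0.29.

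**Figure D3:**
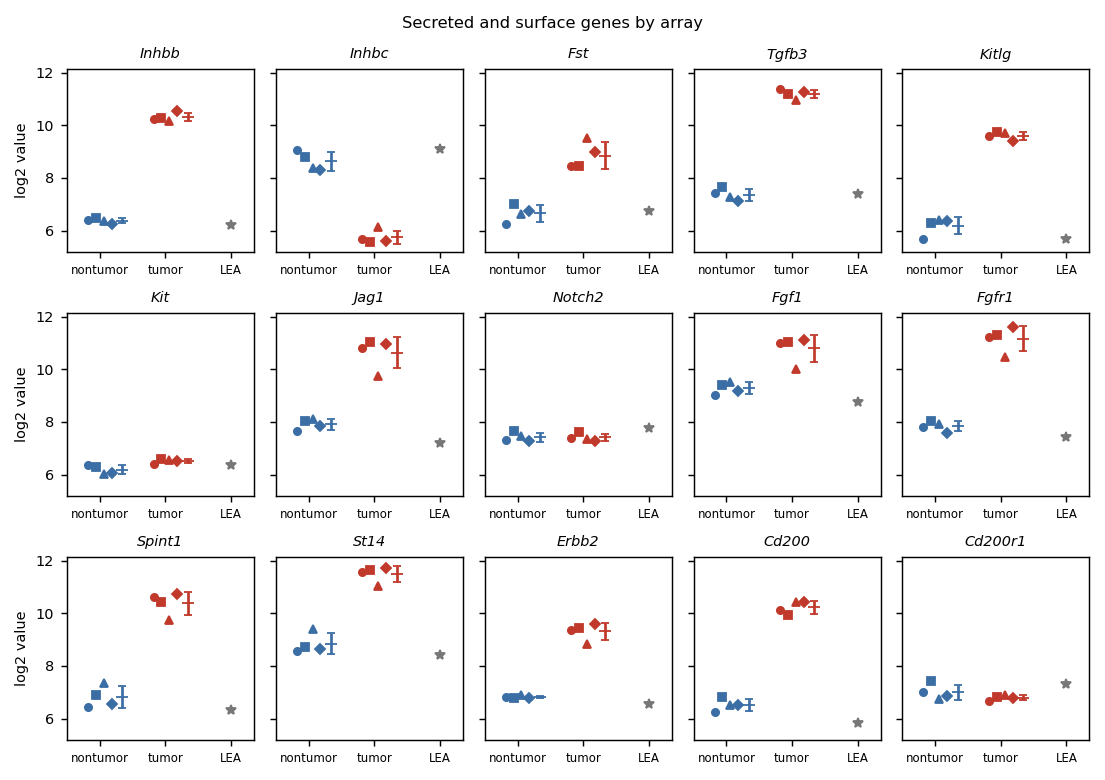
Log2 values (vertical axis) of 15 secreted and surface genes on each nontumor (blue), tumor (red) and LEA (grey star) array, with group mean and SD beside the points and array symbols as in the plot of marker lists. Inhbb, Tgfb3 and Cd200 separate the groups widely, while Kit, Notch2 and Cd200r1 stay near their nontumor values.

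On the cell surface, receptor tyrosine kinases rose in 23 of 38 and fell in 8. Fgfr1 read 7.80, 8.05, 7.93 and 7.59 in nontumor and 11.24, 11.32, 10.48 and 11.61 in tumor liver and rose by 3.32 ± 0.22, a 9.96-fold change. Fgfr3 read 9.77, 10.24, 10.58 and 9.91 in nontumor and 12.99, 13.13, 12.11 and 13.10 in tumor liver and rose by 2.71 ± 0.26. Fgfr2 rose by 1.63 ± 0.21, with 1 of 4 other probe sets called lower. Tumor array 3 was the lowest of the tumor arrays for all 3. Fgfr4, the hepatocyte FGF receptor that limits bile acid synthesis, was not called, at 0.27 ± 0.16 (adjusted p 0.168 in limma), but was called higher, by 0.42, without tumor array 3.

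The ERBB receptors differed among themselves. Erbb2 read 6.82, 6.78, 6.90 and 6.80 in nontumor and 9.36, 9.45, 8.83 and 9.59 in tumor liver, a difference of 2.48 ± 0.15, and LEA liver read 6.57. Erbb3 and Erbb4 fell by 0.58 ± 0.13 and 1.06 ± 0.26. Egfr fell by 0.60 ± 0.22 with overlapping groups, a call lost without any of nontumor arrays 1 and 2 or tumor arrays 1, 2 and 3. Of their ligands, Hbegf rose by 1.12 ± 0.10 from nontumor values in the range of absent RNA, Tgfa by 0.57 ± 0.15, a call lost when quantile normalization was repeated, while Egf fell by 2.01 ± 0.27. Among the receptors of metabolic hormones, Insr, the insulin receptor, fell by 1.07 ± 0.16 and Igf1r rose by 1.12 ± 0.27. Met, the receptor of hepatocyte growth factor, rose by 1.06 ± 0.28. Kit, the receptor of Kitlg, read 6.38, 6.28, 6.03 and 6.08 in nontumor and 6.40, 6.58, 6.55 and 6.52 in tumor liver, a rise of 0.32 ± 0.10 that was not called after array medians were subtracted. The PDGF receptors Pdgfra and Pdgfrb, which mark mesenchymal cells, rose by 2.37 ± 0.17 and 1.95 ± 0.13.

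Ephrins, semaphorins, plexins and guidance receptors rose in 14 of 27 and fell in 3. Sema5a read 6.23 to 7.23 in nontumor and 8.44 to 10.30 in tumor liver, lowest on tumor array 3, and rose by 2.98 ± 0.41. Nrp1, a receptor for semaphorins and VEGF, rose by 2.09 ± 0.13, and Sema4g fell by 1.30 ± 0.13. The Slit receptors moved little: Robo1 fell by 0.28 ± 0.07, and Robo2 rose by 0.18 ± 0.07, a call lost under several settings, leaving out any array but nontumor array 2 included. Cytokine and TNF receptors rose in 17 of 38 (44.7%) and fell in 12 (31.6%), beside 38.8% and 29.2% of all genes. Tnfrsf12a, the receptor of TWEAK, read 8.40, 8.42, 9.0 and 9.11 in nontumor and 10.99, 10.98, 10.80 and 11.04 in tumor liver and rose by 2.22 ± 0.17. Ghr, the growth hormone receptor, read 11.98, 12.24, 11.28 and 10.86 in nontumor and 8.49, 7.79, 9.14 and 7.27 in tumor liver, and Prlr, the prolactin receptor, 12.45, 12.40, 10.41 and 10.51 in nontumor and 8.07, 7.59, 9.17 and 7.68 in tumor liver. For both, nontumor arrays 1 and 2 were higher than 3 and 4. The falls were 3.41 ± 0.43 and 3.31 ± 0.56.

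Of 55 G protein-coupled receptors, 16 rose and 19 fell. The adhesion receptors Adgrg1 and Adgrg6 read 7.76, 8.13, 8.37 and 8.05 in nontumor and 11.57, 11.61, 10.71 and 11.81 in tumor liver, and 7.63, 7.97, 8.19 and 8.08 in nontumor and 10.96, 10.93, 9.86 and 11.17 in tumor liver. Both were lowest on tumor array 3 among the tumor arrays, and they rose by 3.35 ± 0.23 and 2.76 ± 0.27. Gcgr, the glucagon receptor, read 10.53, 10.43, 10.42 and 10.61 in nontumor and 8.35, 7.55, 8.88 and 6.93 in tumor liver, a difference of -2.57 ± 0.36. Avpr1a, the vasopressin receptor of hepatocytes, read 10.64, 10.84, 10.25 and 9.07 in nontumor and 6.83, 6.07, 7.98 and 4.96 in tumor liver, so that the value on tumor array 4 was in the range of absent RNA. Its difference was -3.74 ± 0.62.

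Adhesion molecules of the cadherin, desmosome and related families rose in 35 of 49 and fell in 8, with a median difference of 1.11. Tspan8, a tetraspanin of gut and duct epithelium, read 8.59, 8.95, 10.13 and 8.30 in nontumor and 13.44, 13.01, 13.36 and 13.47 in tumor liver. Cd24, a surface sialoglycoprotein of progenitor cells, read 7.64, 8.72, 9.18 and 8.06 in nontumor and 12.66, 12.67, 12.42 and 12.74 in tumor liver. Both stood higher on every nontumor array than in LEA liver, at 6.44 and 6.27, and rose by 4.33 ± 0.35 and 4.23 ± 0.29. Tspan8 is also on the bile duct list. Ceacam1, an adhesion molecule of the hepatocyte canaliculus, fell by 1.01 ± 0.16. Cdh11 fell by 1.33 ± 0.23 on its brightest probe set, but the mean over its probe sets was higher by 0.95 (adjusted p 0.000133 in limma), so it has no settled direction.

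Surface mucins, proteoglycans and membrane proteases rose in 26 of 37 and fell in 3. Among them were matriptase, a membrane protease of epithelia, and its partners. Spint1, the inhibitor of matriptase, read 6.44, 6.90, 7.34 and 6.55 in nontumor and 10.60, 10.41, 9.75 and 10.73 in tumor liver, and St14, matriptase itself, 8.57, 8.71, 9.42 and 8.64 in nontumor and 11.57, 11.65, 11.05 and 11.72 in tumor liver. Prss8, the protease prostasin that works with matriptase, and the inhibitor Spint2 rose by 1.51 ± 0.33 and 1.27 ± 0.12. Spint1 rose by 3.56 ± 0.25 and St14 by 2.66 ± 0.21. Muc1, a transmembrane mucin, rose by 2.83 ± 0.28. Nt5e, the ectonucleotidase that makes adenosine, fell by 2.12 ± 0.29, and Sdc2, the main heparan sulfate proteoglycan of hepatocytes, by 1.70 ± 0.25.

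Channels and carriers were more evenly split. Of 62 channels, connexins and aquaporins, 28 rose and 23 fell, and of 47 solute carriers 14 rose and 18 fell. Cftr, the chloride channel of bile ducts, read 7.68, 8.66, 8.92 and 7.95 in nontumor and 11.99, 11.90, 11.19 and 12.11 in tumor liver and rose by 3.49 ± 0.30. It belongs to the bile duct list as well. Slc12a2, the sodium, potassium and chloride cotransporter of secretory epithelia, read 9.30, 9.82, 9.40 and 9.05 in nontumor and 12.46, 12.70, 12.80 and 12.80 in tumor liver and rose by 3.30 ± 0.16. Clic3 rose by 3.07 ± 0.18 from levels in or near the range of absent RNA, and Slc34a2, a phosphate carrier, by 2.18 ± 0.37. Aqp9, the glycerol channel of hepatocytes, read 12.06, 11.97, 11.65 and 11.66 in nontumor and 9.53, 8.06, 10.53 and 6.99 in tumor liver, and Slc38a3, their glutamine carrier, 12.22, 11.98, 11.53 and 11.74 in nontumor and 9.19, 7.87, 10.10 and 6.66 in tumor liver. Those differences were -3.06 ± 0.65 and -3.41 ± 0.64. Slc6a13 fell by 4.16 ± 0.56, with tumor array 4 in the range of absent RNA, and Aqp8 fell by 2.50 ± 0.36.

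Immune checkpoint and phagocytosis genes rose in 6 of 16 (37.5%) and fell in 6 (37.5%), beside 38.8% and 29.2% of all genes. Cd200, an inhibitory ligand for myeloid cells, read 6.26, 6.82, 6.52 and 6.53 in nontumor and 10.14, 9.93, 10.43 and 10.42 in tumor liver and rose by 3.70 ± 0.15. Its other probe set was called lower. Its receptor Cd200r1 was not called, at -0.21 ± 0.14 (adjusted p 0.194 in limma). Vtcn1, a B7 family inhibitor of T cells, read 5.62, 5.99, 6.28 and 6.19 in nontumor and 10.02, 9.97, 9.60 and 10.42 in tumor liver and rose by 3.98 ± 0.19, from nontumor values in or near the range of absent RNA. Cd47, which restrains phagocytosis, and its receptor Sirpa rose by 1.13 ± 0.18 and 1.64 ± 0.13. The genes that fell included receptors of resident liver cells: Clec4f, of Kupffer cells, read 12.00, 12.36, 11.81 and 11.60 in nontumor and 8.34, 7.89, 8.79 and 7.37 in tumor liver, and Stab2, of sinusoidal endothelium, 9.67, 9.76, 9.28 and 9.69 in nontumor and 7.07, 6.12, 6.59 and 6.16 in tumor liver. They fell by 3.85 ± 0.29 and 3.12 ± 0.21. Csf1r, shared by macrophages in general, rose by 0.68 ± 0.13.

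Among transcription factors the KLF and EGR family held the largest rise. Of its 17 measured genes 8 rose and 3 fell. Klf5, a factor of proliferating gut and duct epithelium, read 5.50, 6.0, 7.01 and 5.78 in nontumor and 11.03, 11.35, 10.88 and 11.44 in tumor liver. Nontumor array 3 was highest of the nontumor arrays and the other nontumor values were in the range of absent RNA. LEA liver read 5.08, and the difference was 5.10 ± 0.30, which is not exact because of those low values. Klf4 rose by 2.12 ± 0.23. Klf15, which drives amino acid breakdown in fasting, fell by 1.58 ± 0.19 and Klf12 by 0.83 ± 0.14.

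ETS, RUNX, GATA and TEAD factors rose in 18 of 27 and fell in 3. Elf3, an epithelial ETS factor, read 6.87, 6.90, 7.02 and 6.69 in nontumor and 9.80, 9.95, 9.13 and 9.99 in tumor liver and rose by 2.85 ± 0.18. Elk3 rose by 2.40 ± 0.10, with 1 of 3 other probe sets called lower. SOX and FOX factors rose in 13 of 26 and fell in 6. Sox4, a factor of progenitor cells, read 9.41, 9.95, 10.29 and 8.86 in nontumor and 12.73, 12.88, 12.56 and 12.76 in tumor liver and rose by 3.11 ± 0.27, as did 5 of its 6 other probe sets. Foxp1 rose by 1.90 ± 0.11. Foxa3, a hepatic forkhead factor, read 9.83, 9.59, 9.52 and 10.15 in nontumor and 7.46, 7.04, 8.04 and 6.77 in tumor liver, and Foxa1 fell by 1.23 ± 0.14. The fall of Foxa3 was 2.45 ± 0.26.

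EMT and bHLH factors rose in 23 of 38 and fell in 2, led by Bhlhe41, a repressor of the circadian clock, at 2.67 ± 0.35 and Mycl, a MYC family member, at 2.38 ± 0.29. STAT, IRF, NF-kB, SMAD and NFAT factors rose in 23 of 34 and fell in 3. Smad3 read 8.35 to 8.47 on the nontumor arrays and 10.55, 10.83 and 10.15 on tumor arrays 1 to 3, with tumor array 4 the highest. Relb, of the noncanonical NF-kB pathway, rose by 2.10 ± 0.19, and Stat5b, which carries the growth hormone signal, fell by 0.59 ± 0.14. Homeobox factors rose in 11 of 42 and fell in 13. Hopx rose by 2.56 ± 0.18 and Meis1 by 1.71 ± 0.20. Irx2 fell by 1.02 ± 0.13.

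Nuclear receptors were the transcription factors that fell most, with 21 of 38 lower, 8 higher and a median difference of -0.47. Nr1h3, the oxysterol receptor LXR alpha, read 10.11, 10.24, 10.13 and 10.11 in nontumor and 8.20, 7.50, 8.56 and 7.38 in tumor liver. Rxrg, a retinoid X receptor, read 10.32, 10.15, 9.65 and 9.52 in nontumor and 7.80, 7.59, 8.25 and 7.10 in tumor liver. Nr1h4, the bile acid receptor FXR, read 10.73, 10.42, 10.31 and 10.12 in nontumor and 9.09, 8.63, 8.79 and 8.64 in tumor liver. The differences were -2.24 ± 0.24, -2.22 ± 0.26 and -1.61 ± 0.15, and in all 3 the groups did not overlap. Thrb, a thyroid hormone receptor, fell by 1.34 ± 0.13, and Hnf4a, a master factor of the hepatocyte, by 1.14 ± 0.18. Nr2f2 rose by 1.45 ± 0.16 and Ppard by 1.10 ± 0.21.

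The bZIP factors rose in 6 of 27 and fell in 7, and their median difference of 0.04 changed sign after array medians were subtracted. That was also so for the cytokine receptors, at 0.05. Creb3l3, a liver factor of the fasting response, read 12.10, 12.02, 11.87 and 12.10 in nontumor and 9.46, 9.14, 10.10 and 8.96 in tumor liver. Cebpa, which keeps hepatocytes differentiated, read 12.36, 11.80, 11.37 and 11.67 in nontumor and 10.80, 10.65, 10.59 and 10.60 in tumor liver, and Cebpb fell by 1.32 ± 0.28. Cebpd, an acute-phase member of the same family, rose by 1.71 ± 0.17. Creb3l3 fell by 2.61 ± 0.22 and Cebpa by 1.14 ± 0.18.

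**Figure D4:**
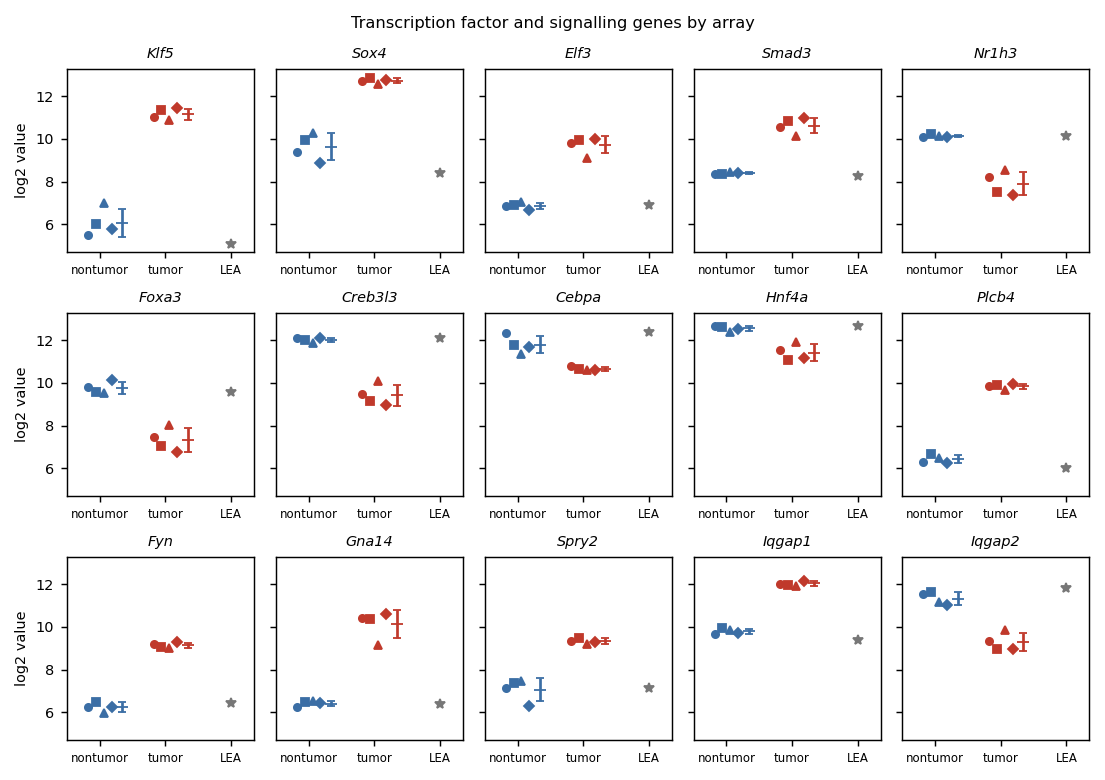
Log2 values (vertical axis) of 9 transcription factor and 6 signalling genes on each nontumor (blue), tumor (red) and LEA (grey star) array, with group mean and SD beside the points. Klf5, Plcb4 and Fyn rise and Nr1h3, Foxa3 and Creb3l3 fall with no overlap of the groups.

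Inside the cell, signalling genes had the highest share of rises of the 4 classes. The list of G protein genes and the list of phospholipase and eicosanoid genes held the largest changes. Cyclic nucleotide and G protein genes rose in 27 of 46 and fell in 4. Gna14, an alpha subunit of the Gq class, read 6.22, 6.47, 6.52 and 6.41 in nontumor and 10.44, 10.36, 9.17 and 10.59 in tumor liver, lowest on tumor array 3 among the tumor arrays, and rose by 3.73 ± 0.28. Rgs1, which turns G proteins off in lymphocytes, rose by 2.96 ± 0.19 from the range of absent RNA. Protein kinase C, phospholipase, calcium and eicosanoid genes rose in 22 of 37 and fell in 5. Plcb4, a phospholipase that Gq activates, read 6.27, 6.68, 6.47 and 6.26 in nontumor and 9.88, 9.90, 9.66 and 9.94 in tumor liver and rose by 3.42 ± 0.11. Plcb1, its paralog, fell by 0.87 ± 0.17. Ptgds, a prostaglandin D synthase, read 6.12, 6.42, 6.53 and 6.26 in nontumor and 10.31, 10.30, 9.51 and 10.55 in tumor liver and rose by 3.83 ± 0.21.

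SRC kinases, receptor phosphatases and adaptors rose in 22 of 29 and fell in 2. Fyn, a SRC family kinase, read 6.23, 6.49, 5.94 and 6.26 in nontumor and 9.18, 9.07, 9.0 and 9.29 in tumor liver and rose by 2.91 ± 0.12. Ptprm rose by 2.05 ± 0.20, and Ptprd and Ptprk fell by 1.11 ± 0.22 and 0.78 ± 0.15. A pair of paralogous scaffold genes moved in opposite directions: Iqgap1 read 9.67, 9.93, 9.85 and 9.70 in nontumor and 12.03, 11.99, 11.94 and 12.17 in tumor liver, and Iqgap2, the form of the liver, 11.53, 11.62, 11.15 and 11.03 in nontumor and 9.32, 8.98, 9.85 and 8.96 in tumor liver. Iqgap1 rose by 2.25 ± 0.09 and Iqgap2 fell by 2.06 ± 0.22.

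RAS-MAPK kinases and feedback inhibitors rose in 17 of 33 and fell in 5. Spry2, a feedback inhibitor of receptor tyrosine kinases, read 7.12, 7.37, 7.44 and 6.29 in nontumor and 9.36, 9.49, 9.18 and 9.30 in tumor liver and rose by 2.28 ± 0.23. Map3k1 rose by 2.13 ± 0.25. Errfi1, an inhibitor of the EGF receptor, fell by 1.27 ± 0.25. PI3K and insulin signalling genes rose in 15 of 28 and fell in 4. Ddit4, an inhibitor of mTOR, rose by 2.52 ± 0.21 and the insulin receptor adaptor Grb10 by 1.88 ± 0.14. Its relative Grb14 fell by 1.45 ± 0.13, and the kinase Sgk2 by 1.83 ± 0.23. JAK kinases, SOCS proteins and phosphatases rose in 11 of 18 and fell in 1. Socs5 and Socs7 rose by 2.18 ± 0.15 and 1.63 ± 0.11. Socs1 fell by 0.24 ± 0.07 on its brightest probe set, while its other probe set was called higher.

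Notch pathway genes rose in 10 of 18 and fell in 4. Jag1, the ligand that patterns bile ducts, read 7.67, 8.02, 8.12 and 7.84 in nontumor and 10.79, 11.04, 9.76 and 10.95 in tumor liver and rose by 2.72 ± 0.26. Rbpj, the DNA-binding partner of Notch, rose by 1.54 ± 0.08, and Hes1, a Notch target, by 1.42 ± 0.21. The receptors moved less: Notch1 rose by 0.62 ± 0.13, and Notch2 and Notch3 were not called, at -0.01 ± 0.11 (adjusted p 0.945) and 0.08 ± 0.12 (adjusted p 0.558) in limma. The ligands Jag2 and Dll1 rose by 0.58 ± 0.07 and 0.67 ± 0.13. Wnt receptors, transducers and targets rose in 20 of 32 and fell in 5. Fzd2 read 6.03, 6.26, 6.66 and 6.45 in nontumor and 9.55, 9.63, 8.88 and 9.79 in tumor liver, and Wls, which carries Wnt proteins out of the cell, 7.86, 8.30, 8.27 and 7.62 in nontumor and 11.12, 11.14, 10.98 and 11.26 in tumor liver. They rose by 3.11 ± 0.21 and 3.11 ± 0.15. Axin2, a Wnt target, rose by 0.79 ± 0.19, and Fzd8 and Lrp5 fell by 1.32 ± 0.19 and 0.65 ± 0.11. Of 11 Hedgehog genes 4 rose (36.4%) and 3 fell (27.3%), shares near those of all genes, 38.8% and 29.2%. Boc and Gas1, coreceptors, rose by 0.91 ± 0.13 and 0.44 ± 0.09, and Hhip, an inhibitor, fell by 1.07 ± 0.22. The values of Boc and Hhip are not exact, since 3 nontumor values of Boc and 2 of Hhip, and all tumor values of Hhip, lay in the range of absent RNA.

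The bile duct marker list stood at least 4.01 above the nontumor mean on each tumor array, beside all rises of surface, transcription factor and signalling genes. Its part in them was not tested.

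The falls were then set against the hepatocyte index, to see which followed the residual hepatocyte signal of each tumor array. For every gene, the slope of its 4 tumor differences on the index was taken. At a slope of 1 the differences of a gene change from array to array as much as the index. At 0 they do not change with it. The slope does not measure how deep a fall is. Slopes over 4 arrays are descriptions and carry no test. Of the 983 genes that fell at least 2-fold, 869 kept all tumor values above the range of absent RNA. Of these, 133 (15.3%) had a slope of at least 0.5 and are called scaling. Another 364 (41.9%) had a slope between -0.1 and 0.1 and are called even. Over all 14217 genes, 1.32% had a slope of at least 0.5 and 88.2% one between -0.1 and 0.1. The 4 arrays followed the order of the index in 50.4% of the 869 falls, in 95.5% of the scaling falls, in 12.9% of the even falls and in 6.98% of all genes.

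Scaling and even falls were sorted by their slopes over the tumor arrays, so their unlike array orders and medians were largely fixed in advance. The median scaling fall was -2.30, -3.64, -1.40 and -5.35 on tumor arrays 1 to 4. The median even fall was -1.19, -1.37, -1.17 and -1.35. Scaling falls came from genes with a median nontumor level of 12.58, and even falls from genes with one of 9.40. A gene at a low level cannot fall as far as the index did on tumor array 4, so the level limits the slope. Among the 341 falls with a nontumor level of at least 11.14, which leaves that room, 124 scaled and 51 were even. Just inside the limit of scaling lay Clcn4 and Ugt2b1, with slopes of 0.50 and 0.52, and just outside it Acsm2 and Cpb2, with 0.50 and 0.49. Cyp39a1 and Gcdh were just inside the limit of even falls and Sult1c2a and Acad11 just outside it, all with a slope of 0.10 after rounding.

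Tumor array 4 weighed heavily on the slopes. Without it, 304 falls scaled and 183 were even, and 129 of the 133 scaling falls still scaled, but only 166 of the 364 even falls were still even. No scaling fall became even under any of the settings tried, which included leaving out each tumor array. The replicate block, the lifting of the floor and the limit to genes with room leave the slope itself unchanged, so they could not show such a turn. Another nontumor reference shifts all tumor differences of a gene alike, so it could alter a slope only through the index. With nontumor arrays 3 and 4 alone as the reference, and so fewer arrays behind each call, 85 falls scaled.

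The steepest scaling falls were plasma proteins and metabolic enzymes at the top of the scale in nontumor liver. The index was made of such genes, so this likeness was largely fixed by its choice. Of the 133 scaling falls, 8 came from its secreted list and 6 from its enzyme list. Rbp4, the plasma carrier of retinol and itself an index gene, left out of its own index, read 13.47, 13.58, 13.43 and 13.43 in nontumor and 11.66, 10.16, 12.81 and 6.90 in tumor liver. Fgb, the beta chain of fibrinogen, read 13.87, 13.99, 13.84 and 13.66 in nontumor and 12.28, 10.60, 13.18 and 7.61 in tumor liver. F2, prothrombin, read 13.66, 13.67, 13.42 and 13.43 in nontumor and 11.68, 10.08, 12.84 and 7.19 in tumor liver. On tumor array 3 each lay less than 1 below the nontumor mean, and on tumor array 4 more than 6 below it. Their slopes were 1.22, 1.16 and 1.16. Cyp2d2, a drug-metabolizing cytochrome, Ces1c, an esterase of plasma, Apoc1, an apolipoprotein, and Fetub, a plasma protease inhibitor, followed with slopes of 1.20, 1.17, 1.15 and 1.14. Pzp, a plasma protease trap, Hpd, of tyrosine breakdown and also an index gene, and Serpina3c, a serpin, had slopes of 1.12, 1.12 and 1.07.

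Their wide spread over the tumor arrays left these calls weak. The differences of the 10 genes ran from -3.42 to -2.70, with adjusted p from 0.0141 to 0.0367 in limma. Leaving out any 1 nontumor array or tumor array 2 ended the calls of Rbp4, Fgb, Ces1c, Apoc1, Pzp and Serpina3c. Cyp2d2 and F2 were lost without nontumor array 1 or tumor array 2, Fetub without nontumor array 1 or 3 or tumor array 2, and Hpd was kept without any 1 array. Of the 187 genes with a slope of at least 0.5, 17 were not called at all and 37 were lower with a tumor value in the range of absent RNA. Alb, for albumin, read 14.57, 14.57, 14.57 and 14.53 in nontumor and 14.32, 14.04, 14.59 and 12.78 in tumor liver, at the top of the scale on most arrays, and its difference of -0.62 ± 0.34 (adjusted p 0.13 in limma) passed only without tumor array 3.

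Genes grouped by symbol, a grouping made after the values were seen, divided differently between the slope classes. Of 13 blood coagulation genes 11 fell, and 10 of those scaled. F3, tissue factor, which is made outside hepatocytes, rose by 3.41 ± 0.08. Of 14 apolipoprotein genes 10 fell, and 8 of them scaled. Some of these scaling genes, such as Fga, Apob and Apoh, are index genes, each left out of its own index. Complement genes fell in 13 of 16 measured, and 6 scaled, among them C8a, C8b, C8g and C9 of the membrane attack complex. Cytochrome P450 genes were mixed: of 58, 43 fell, with 10 scaling, 7 even and 12 in between. Cyp7a1 and Cyp8b1, of bile acid synthesis, scaled with slopes of 0.85 and 0.56, while Cyp27a1 and Cyp39a1, of the same process, were even with slopes of 0.05 and 0.10. The nontumor level of Cyp39a1, 9.45, left no room to follow the index. Cyp7b1, of the same process too, rose by 0.68 ± 0.18 with overlapping groups.

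Mitochondrial acyl-CoA oxidation enzymes fell in 20 of 23, and of their 12 falls of at least 2-fold 9 were even and 3 in between. Acadm, the medium-chain acyl-CoA dehydrogenase, read 12.64, 12.81, 12.38 and 12.06 in nontumor and 11.05, 10.81, 11.04 and 10.77 in tumor liver. It fell by 1.56 ± 0.16 and had a slope of 0.06, although its nontumor level left room for a fall as deep as the index. Etfdh, which passes electrons from these enzymes to the respiratory chain, read 10.88, 11.18, 10.63 and 10.43 in nontumor and 8.57, 8.60, 8.95 and 8.57 in tumor liver. Cpt2, Acaa2 and Eci2 fell by 1.89 ± 0.10, 1.70 ± 0.13 and 1.87 ± 0.11 with slopes of 0.05, 0.07 and 0.04. Of the 6 falls in this group with room to follow the index, 5 were even.

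The largest even fall was that of Sds, serine dehydratase, a fasting-induced enzyme, which read 11.29, 9.59, 9.84 and 10.44 in nontumor and 7.62, 7.43, 7.58 and 7.59 in tumor liver. Its nontumor values spanned more than its tumor values, which lay within 7.43 to 7.62. Cyp39a1, Krt79, Fcna, Il1a, Csad, Etfdh, Entpd8, Egf and Bdh2 were next, with falls between -2.01 and -2.52. They include a keratin (Krt79), a ficolin of macrophages (Fcna), the cytokine interleukin 1 alpha (Il1a), an enzyme of taurine synthesis (Csad) and epidermal growth factor (Egf). The even falls were lowest on tumor array 2 in 179 cases and on tumor array 4 in 128.

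The 4 classes held 82 falls of at least 2-fold above the range of absent RNA, of which 9 scaled and 23 were even. Scaling falls were 7 of 17 among secreted genes, all liver-secreted hormones and carriers, such as Agt, Azgp1, Hamp and Fgl1 with slopes of 0.63, 0.85, 0.83 and 1.05. They were 2 of 35 among surface genes, Aqp9 and Slc38a3, with slopes of 0.71 and 0.69. They were 0 of 21 among transcription factors and 0 of 9 among signalling genes. The median nontumor level was 10.73 for the secreted, 10.50 for the surface, 9.91 for the transcription factor and 10.19 for the signalling falls. All were under the 11.14 that leaves room to follow the index, and the part of the level in these counts was not tested. Slc6a13 and Avpr1a had slopes of 0.62 and 0.58 but reached the range of absent RNA.

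The hepatocyte transcription factors named here had low slopes. Hnf4a read 12.66, 12.64, 12.38 and 12.54 in nontumor and 11.53, 11.06, 11.93 and 11.16 in tumor liver, with a slope of 0.14. Creb3l3, Foxa3 and Nr1h3 had slopes of 0.20, 0.24 and 0.24, and Cebpa, Nr1h4, Thrb and Klf15 were even, with slopes of 0.02, 0.06, 0.10 and 0.08. The nontumor levels of Foxa3, Nr1h3 and Nr1h4 were under 11.14 and left no room to follow the index. Those of Hnf4a, Creb3l3 and Cebpa left that room. Among receptors, Ghr, Gcgr and Prlr lay in between, at 0.37, 0.39 and 0.24, and Erbb4, Sema4g and Ptger3 were even. Even falls among signalling genes included Fzd8, Grb14, Pde3b and Ptprd. Cd163, a macrophage scavenger receptor, was even at -1.15 ± 0.13 while Clec4f, of Kupffer cells, had a slope of 0.28. The nontumor level of Cd163, 8.94, left no room to follow the index, while that of Clec4f, 11.94, left that room.

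**Figure D5:**
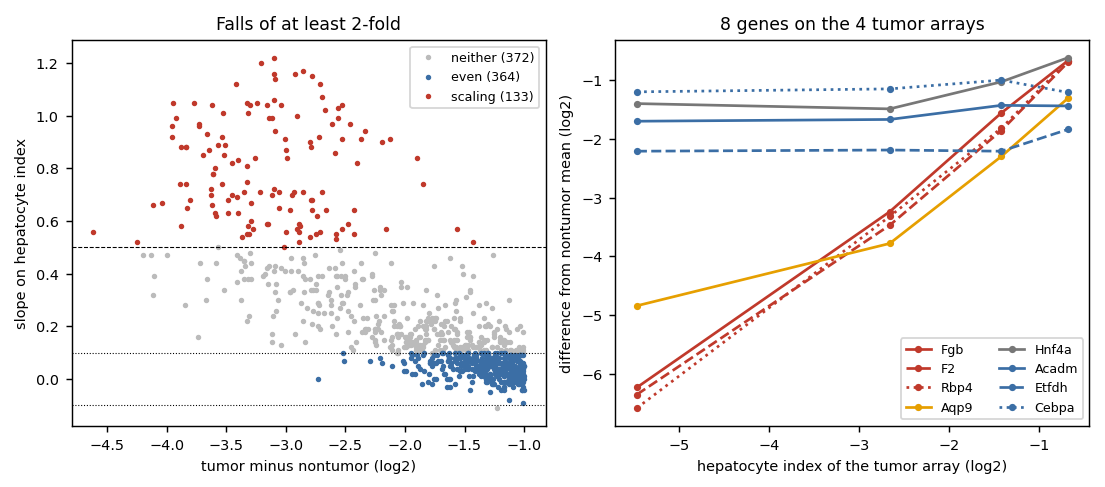
Left, slope on the hepatocyte index (vertical) against tumor minus nontumor (log2, horizontal) for the 869 falls, with scaling falls in red, even falls in blue and the rest in grey. Right, difference from the nontumor mean (log2) of 8 genes on the 4 tumor arrays, placed by their hepatocyte index: Fgb, F2 and Rbp4 drop with the index, while Acadm, Etfdh and Cebpa stay level.

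The promoters of the 2 kinds of falls were compared as a description, on RefSeq sequences of build GRCr8. The motif GTTAAT is the core of the site of HNF1, a homeobox factor of hepatocytes, and it was searched on both strands in the 250 bases before each gene's start. It was in 23 of 108 scaling falls that had a sequence (21.3%), in 15 of 302 even falls (4.97%), in 22 of 315 falls in between (6.98%) and in 505 of 11700 genes on the array (4.32%). Of 427 rises of at least 4-fold it was in 4.92%, and of all 27457 promoters in 6.46%. TTNNGCAA, of the C/EBP factors, was in 21.3% of scaling falls, 7.28% of even falls and 8.17% of genes on the array. AAAGTCCA, of HNF4, was in 3.70%, 0.993% and 0.957%, and TGANTCA, of AP-1, in 7.41%, 3.97% and 4.83%. CCGGAAGT, of ETS factors, was in 0.926%, 3.64% and 5.71%. The 5 motifs do not contain each other. Both slope classes were chosen from these data and scaling genes are highly expressed in liver, so the shares carry no test, and a match is not a site.

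The 120 bases before the start are shown for Alb and for the 4 scaling falls of highest slope that hold GTTAAT there, because they show where the motif lies, and for the 2 largest even falls with a sequence, which lack it there. Capitals mark GTTAAT or its reverse complement ATTAAC, each sequence runs 5′ to 3′ on the gene's strand, and all 7 genes are on the minus strand.
Alb, chr14:17906980-17907099: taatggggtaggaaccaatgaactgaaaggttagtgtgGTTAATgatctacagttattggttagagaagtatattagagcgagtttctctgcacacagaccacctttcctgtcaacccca
Cyp2d2, chr7:115819282-115819401: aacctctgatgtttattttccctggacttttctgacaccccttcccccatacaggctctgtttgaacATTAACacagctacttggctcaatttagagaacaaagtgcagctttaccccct
Fgb, chr2:170700876-170700995: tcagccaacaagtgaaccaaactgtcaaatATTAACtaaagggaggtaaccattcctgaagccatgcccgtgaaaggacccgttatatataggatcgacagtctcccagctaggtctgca
F2, chr3:98065247-98065366: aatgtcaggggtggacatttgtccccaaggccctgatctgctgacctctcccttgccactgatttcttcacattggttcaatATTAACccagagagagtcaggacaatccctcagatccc
Pzp, chr4:163491336-163491455: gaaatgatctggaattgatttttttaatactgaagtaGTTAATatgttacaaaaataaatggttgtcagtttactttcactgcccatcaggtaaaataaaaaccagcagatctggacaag
Cyp39a1, chr9:24804061-24804180: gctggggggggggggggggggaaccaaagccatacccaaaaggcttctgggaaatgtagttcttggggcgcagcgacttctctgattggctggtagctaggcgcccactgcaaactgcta
Krt79, chr7:134946448-134946567: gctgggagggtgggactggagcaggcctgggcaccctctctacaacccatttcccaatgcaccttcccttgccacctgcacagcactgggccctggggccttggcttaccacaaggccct
In Alb, whose promoter is a textbook site of HNF1, the motif begins 82 bases before the start. In Cyp2d2, Fgb, F2 and Pzp it begins 53, 90, 38 and 83 bases before it.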

How the data were processed

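RNA of 12 liver pools was measured on Affymetrix rat arrays, and the 8 LEC arrays of 67 weeks labelled tumor or nontumor entered every test. The authors deposited log2 values, made with RMA and R 2.6.1 per the submitters' processing notes. Per the labels' protocols, total RNA was DNase-treated and 3 ug of it was labelled as biotin-cRNA. It is not given in the sources used here if RMA ran on all 12 arrays at once. RMA smooths values between arrays, and differences near the top of the scale may be compressed.

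Of 31099 probe sets, 57 controls were left out and 31042 tested with limma 3.58.1 (lmFit and eBayes, R 4.3.3), tumor minus nontumor, with Benjamini-Hochberg adjustment over all of them. The adjusted p threshold was 0.05. A gene is represented by its brightest probe set. Of the probe sets, 20826 had 1 gene symbol, 436 had several and 9780 had none listed. Symbols came from the platform annotation and were updated by Entrez identifier for 20758 probe sets, which left 14217 genes. The number of arrays limits the precision. The test was checked on simulated data for this comparison (31042 probe sets, 200 changed): 20, 45, 48 and 50 of 50 changes of 0.5, 1, 2 and 4 log2 units were called, with 4 false calls. The simulated probe sets were independent, with the same spread in both groups, and far fewer changed than were called in the data. These rates hold for that setting only and do not give the error of the real comparison.

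Named genes are, in each list, the 2 largest rises and the 2 largest falls whose groups do not overlap, with known partners, and the 10 steepest scaling and 10 largest even falls. Locus symbols were passed over. The counts of 1 signalling list are not reported here. The partners, the grouping by symbol and the promoter motifs were chosen after values were seen, and the members and lists with earlier results of these data known. Other names, such as the acyl-CoA oxidation enzymes, were also chosen after their values were seen. Plots came from Python 3.11.15 with matplotlib 3.10.9. Alternatives to the scaling, the dim-probe filter, the fit, the probe set rule, the index and the arrays used were tried.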

Additional observations from a re-analysis of the deposited data

Results flagged for a closer look

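In 25 of 436 groups of 4 arrays, Dixon's test set 1 array of a named gene apart, and chance gives about 1 in 20. The test weighs the gap against the range of the 4 values, so a flag can rest on a small gap. The flagged values of Vgf and Elf5 lay in the range of absent RNA, and that of Alb near the top of the scale. Tumor array 3 was the lowest of the tumor arrays in 10 of the 25 groups. These were Dll1 at 7.18 (the others 7.72 to 7.80), Elf5 at 4.99 (the others 5.12 to 5.14), Fgf1 at 10.02 (the others 11.01 to 11.11), Fgfr2 at 10.83 (the others 11.62 to 11.77) and Fgfr3 at 12.11 (the others 12.99 to 13.13). The others were Gna14 at 9.17 (the others 10.36 to 10.59), Prss8 at 9.56 (the others 10.48 to 10.59), Sema5a at 8.44 (the others up to 10.30), Socs7 at 9.35 (the others 9.75 to 9.76) and Tgfa at 8.40 (the others 9.0 to 9.08). Tumor array 3 was the highest for Etfdh at 8.95 (the others 8.57 to 8.60) and Plaur at 7.20 (the others 6.87 to 6.92).

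On the remaining tumor arrays, array 1 was lowest for Grb10 at 8.02 (the others 8.24 to 8.29) and Pdgfa at 7.64 (the others 7.86 to 7.87). Array 2 was highest for Ptprd at 9.86 (the others 9.60 to 9.63). Array 4 was lowest for Cebpd at 10.69 (the others 10.88 to 10.89) and Vgf at 5.33 (the others 5.35 to 5.35).

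Among nontumor arrays, array 1 was lowest for Kitlg at 5.69 (the others 6.30 to 6.39) and Relb at 8.09 (the others 8.44 to 8.48) and highest for Socs1 at 8.01 (the others 7.85 to 7.87). Array 2 was highest for Elk3 at 8.92 (the others 8.57 to 8.59), and array 3 lowest for Wnt7a at 6.74 (the others 7.01 to 7.02). Array 4 was highest for Csad at 11.46 (the others 11.14 to 11.19) and Prkce at 9.55 (the others 8.93 to 8.94) and lowest for Alb at 14.53 (the others 14.57 to 14.57).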

How the results depend on the processing

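With 4 arrays a group, precision is limited by their number, and levels up to 6.01 on nontumor and 5.67 on tumor arrays could not be told from absent RNA. Of 218 named genes, 152 kept their call and direction under all settings in which they were read, and 66 did not, mostly at the stricter threshold of 1 log2 unit. With only probe sets above the median of means, 170 of the named genes were read, and the others were not tested there. With only probe sets above the median of means, which tests fewer genes, 3604 probe sets and 2245 genes were lower, and 23 secreted, 61 surface, 30 transcription factor and 22 signalling genes. With a difference of at least 1 log2 unit required as well, 3424 probe sets were higher and 1613 lower, and 1987 genes higher and 983 lower. At that threshold 20 secreted genes were lower, and 108 surface, 53 transcription factor and 71 signalling genes were higher against 38, 25 and 10 lower.

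Leaving out 1 array at a time gave 8921 to 9913 probe sets higher and 8420 to 10060 lower, and 5080 to 5540 genes higher and 3553 to 4080 lower. By class the ranges were 88 to 95 higher and 39 to 51 lower for secreted, 171 to 181 and 81 to 95 for surface, 102 to 114 and 48 to 57 for transcription factor, and 161 to 174 and 31 to 39 for signalling genes. Scaling falls ranged from 108 to 304 and even falls from 183 to 486, with 304 and 183 reached without tumor array 4. Even falls numbered 605 when quantile normalization was repeated; the cause was not tested. In alternatives chosen after seeing the data, nontumor arrays 3 and 4 alone gave 85 scaling falls, from fewer samples, and genes with room to follow the index gave 51 even falls, from fewer genes.

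Whether the title numbers pair the samples is not stated, and the data gave no clear sign of it: deviations of equal numbers correlated at 0.05, 0.14, -0.08 and 0.14. With the number as a replicate block, 9698 probe sets were higher and 9259 lower, 140 falls scaled and 364 were even.

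The direction of 7 genes turned under some setting. When quantile normalization was repeated, Dll4 read -0.08 and Fgfr4 -0.02, and after array medians were subtracted Notch3 read -0.02. Notch2 read 0.03 with array weights, and 0.07, 0.01, 0.01 and 0.04 without nontumor array 2, nontumor array 3, tumor array 3 and tumor array 4. With nontumor arrays 3 and 4 alone, Notch2 read 0.05 and Notch3 -0.07. Averaged over all their probe sets, Arnt2 read 0.01, Cdh11 0.95 and Socs1 0.07, since their probe sets disagreed. The cause was not tested for the other 4.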
